A study of Mus musculus with 16 samples.

Results

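The genes described here make, salvage or spend nicotinamide adenine dinucleotide (NAD) in muscle. The 10 members were taken by name from the 24454 genes of a gene count table: Nampt, Naprt, Nadsyn1, Nmnat1, Nmnat2, Nmnat3, Nmrk1, Nmrk2, Nnmt and Sirt1. All 10 were in the table and all 10 passed the filter on low counts. RNA was sequenced from the gastrocnemius, a calf muscle, of 16 mice aged 3 months, each library being 1 mouse. The mice were HSALR animals, homozygous for a human skeletal actin transgene that carries long CTG repeats, or control animals of the background strain FVB/N that lack it. The transgene is expressed in skeletal muscle only and models myotonic dystrophy type 1, in which RNA with expanded CUG repeats holds splicing factors in the nucleus. Mice of both genotypes received vehicle or AICAR, an activator of the energy sensor AMPK, at 500 mg per kg for 7 days. There were 3 control mice and 5 HSALR mice on vehicle, and 3 control mice and 5 HSALR mice on AICAR. All mutant animals came from 1 transgenic line, so the transgene and its insertion cannot be told apart. The sources do not call the FVB/N mice littermates of the HSALR mice, so differences between the stocks cannot be told apart from the transgene either.

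NAD carries electrons in energy metabolism and is also consumed as a substrate by sirtuins, PARP enzymes and CD38, so cells must keep rebuilding it. Most NAD in muscle is rebuilt from nicotinamide by NAMPT, which gives nicotinamide mononucleotide (NMN). The nicotinamide riboside kinases NMRK1 and NMRK2 give NMN from nicotinamide riboside, NMRK2 being the form typical of muscle. NAPRT and NADSYN1 open and close the route from nicotinic acid, and the 3 NMNAT enzymes join the mononucleotide to adenylate in the nucleus (NMNAT1), at the Golgi and in axons (NMNAT2) and in mitochondria (NMNAT3). NNMT methylates nicotinamide and so removes it from salvage. SIRT1 is a nuclear deacetylase that uses NAD and is commonly studied together with AMPK.

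Upstream sequences are shown for Nampt and Nmrk1, which passed the test for AICAR in HSALR mice in opposite directions. They were read from RefSeq promoter sequences on GRCm38.p6, which held 8 of the 10 members. Each is printed 5′ to 3′ on the strand of its gene and stops before the first exon that GENCODE M21 gives the gene there. Capitals mark matches on both strands, in the 250 bases before the start site, to 5 short motifs. These were TATAAA (the TATA box), GGGCGG (the GC box of SP1-type factors), CACGTG (the E-box of MYC and clock factors), TGACG (the core of the cyclic AMP response element) and CANNTG (the general E-box of myogenic factors). Every CACGTG is also a CANNTG. The Nampt stretch is chr12:32820085-32820334 (+) and the Nmrk1 stretch is chr19:18631766-18631949 (+). GENCODE also gives Nampt a transcript that starts further upstream, and the stretch lies in its first intron. The windows of Nmrk2 and Nmnat2 belong to start sites inside the gene, with 228 and 250 of their 250 bases within the span that RefSeq gives the gene, and are not shown.
Nampt: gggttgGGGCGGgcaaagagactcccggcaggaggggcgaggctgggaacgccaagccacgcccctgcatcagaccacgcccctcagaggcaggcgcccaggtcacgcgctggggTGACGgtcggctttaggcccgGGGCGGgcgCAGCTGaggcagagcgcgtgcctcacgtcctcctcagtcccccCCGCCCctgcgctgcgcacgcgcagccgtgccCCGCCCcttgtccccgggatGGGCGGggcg
Nmrk1: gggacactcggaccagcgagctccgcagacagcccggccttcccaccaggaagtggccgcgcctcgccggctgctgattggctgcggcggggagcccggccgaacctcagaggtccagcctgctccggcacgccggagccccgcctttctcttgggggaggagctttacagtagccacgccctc

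Nampt had 5 matches to GGGCGG, 1 to TGACG and 1 to CANNTG in its 250 bases, and Nmrk1 had 0 to any of the 5 motifs. Of 32851 mouse promoter windows of that length, 32.74% held at least 1 GGGCGG, 17.77% a TGACG, 66.22% a CANNTG, 12.37% a TATAAA and 6.02% a CACGTG. Matches are letters in a window and nothing was measured at these sites.

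Between 64890014 and 81987726 reads were counted per library (median 73021286), and the members had from 24 (Nmnat2) to 23755 reads (Nampt) in a library. Levels are given as normalized CPM, that is read counts scaled to a common library size with TMM factors. Comparisons were tested with the quasi-likelihood test of edgeR fitted to all 15487 genes tested and all 16 mice, and a gene is said to have risen or fallen where its adjusted p was under 0.05. Skeletal muscle markers summed to between 127370 and 186870 normalized CPM in every library, and lymphocyte markers to at most 0.326. Epidermal genes, keratins and loricrin, stood apart in 6 libraries, namely 4 of 5 HSALR mice on vehicle (25.4 to 257 normalized CPM summed over 6 markers), 1 control mouse on vehicle (116) and 1 control mouse on AICAR (141), against at most 3.40 in the other 10. Summed endothelial markers were lower in HSALR mice on vehicle (155 to 204) than in control mice on vehicle (234 to 261), and on AICAR they were 195 to 213 in HSALR and 241 to 262 in control mice, again without overlap. Summed slow fibre markers reached 11935 in 1 control mouse on vehicle against 1692 to 5124 in the other 15 mice. The part of these tissues in the results was not tested except where a value is given. In whole muscle, fewer cells of a type and less RNA per cell cannot be told apart.

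**Figure D1:**
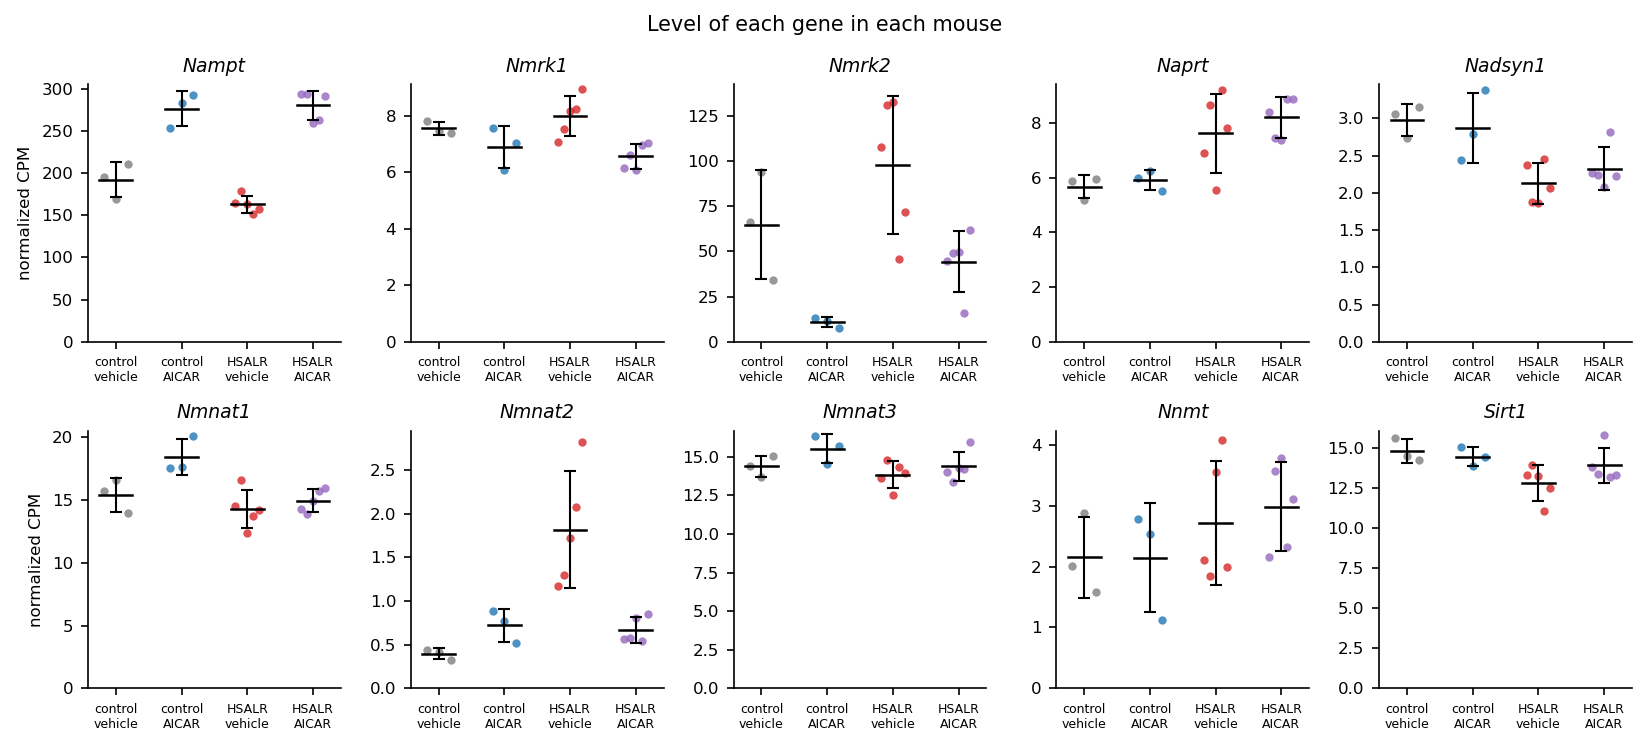
Level of each of the 10 genes in each mouse, in normalized CPM on axes that start at 0, for the 4 groups. Each point is 1 mouse, the horizontal line is the mean and the bar is the SD (n = 3, 3, 5 and 5); Nampt separates by AICAR in both genotypes and Nmnat2 is highest in HSALR mice on vehicle.

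The first question was which of these genes responded to AICAR. In HSALR mice 4 of the 10 members passed the test: Nampt rose, and Nmnat2, Nmrk1 and Nmrk2 fell. In control mice 2 passed it, with Nampt higher and Nmrk2 lower. Of all genes tested, 26.6% passed in HSALR mice (13.7% higher and 13.0% lower) and 13.2% in control mice (8.40% higher and 4.77% lower). Counts of 4 and 2 in 10 are not set apart from those backgrounds. The median absolute log2 fold change of the members was 0.13 in HSALR mice, against 0.17 over all genes, and 0.12 in control mice, against 0.19.

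Nampt (Entrez 59027, chr12:32820335-32853369 on mm10), the rate-limiting enzyme of nicotinamide salvage, rose on AICAR in both genotypes. Its levels in control mice were 170, 196 and 211 normalized CPM on vehicle and 253, 283 and 292 on AICAR. In HSALR mice they were 151, 157, 163, 164 and 179 on vehicle and 259.8, 263, 291, 294 and 294 on AICAR. No mouse on AICAR overlapped with any mouse on vehicle, in either genotype. The increase was 1.72-fold in HSALR mice (log2 fold change 0.78 ± 0.07 SE, adjusted p = 2.27e-06) and 1.44-fold in control mice (0.52 ± 0.09, adjusted p = 0.0015). It passed the test in all 27 alternative fits in either genotype, with log2 fold changes from 0.66 to 0.84 in HSALR mice and from 0.44 to 0.73 in control mice. The difference between these increases was 0.26 ± 0.11 (adjusted p = 0.28), which did not pass, and the sign of that difference turned when libraries were scaled to Tbp.

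On vehicle, Nampt was 1.18-fold lower in HSALR mice than in control mice (log2 fold change -0.24 ± 0.08, adjusted p = 0.034), and the highest HSALR mouse, 179, lay above the lowest control mouse, 170. This call was lost in 9 of 27 alternative fits. Among them, it was lost without the control mouse S450 (-0.17, adjusted p = 0.18), without the control mouse S445 (adjusted p = 0.11) and without any one of the HSALR mice S453, S458 and S459 (adjusted p 0.055 to 0.067). It was also lost with the slow fibre covariate (-0.22, adjusted p = 0.14), where S450 is the mouse with the slow fibre sum of 11935, and with Tbp scaling the sign turned (0.045). After AICAR, the genotypes averaged 280.3 ± 17.2 (SD, n = 5) and 276 ± 20.5 (SD, n = 3), and the log2 difference was 0.02 ± 0.08 (adjusted p = 0.87).

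Nmrk2 (Entrez 69564, chr10:81198170-81202265), the nicotinamide riboside kinase of muscle, moved most of all the members with AICAR in control mice. Its levels in control mice were 34.0, 66.4 and 93.9 normalized CPM on vehicle and 7.83, 11.7 and 13.1 on AICAR. In HSALR mice they were 45.9, 71.9, 107, 131 and 133 on vehicle and 16.1, 44.8, 49.1, 49.9 and 61.9 on AICAR. The control groups did not overlap, whereas in HSALR mice 1 vehicle animal (45.9) lay below 3 animals on AICAR. Nmrk2 fell 5.94-fold in control mice (log2 fold change -2.57 ± 0.49, adjusted p = 0.0034) and 2.21-fold in HSALR mice (-1.14 ± 0.36, adjusted p = 0.027). After AICAR it was 4.06-fold higher in HSALR mice than in control mice (2.02 ± 0.45, adjusted p = 0.0053), with no overlap between the groups.

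The fall of Nmrk2 in HSALR mice was lost without the vehicle mouse S452 (adjusted p = 0.062), the vehicle mouse S453 (0.069) or the AICAR mouse S454 (0.055). It was also lost with the epidermal marker level as a covariate (-1.27, adjusted p = 0.077). That level had a median of 48.1 normalized CPM in HSALR mice on vehicle and was at most 2.91 in those on AICAR. The covariate is thus partly confounded with AICAR in HSALR mice, and a call lost with it may reflect lost precision. The fall in control mice and the genotype difference after AICAR passed in all 27 alternative fits, from -2.88 to -2.20 and from 1.53 to 2.24. The smallest genotype difference, 1.53 (adjusted p = 0.043), came with the slow fibre marker level as a covariate. The difference between the AICAR effects, 1.43 ± 0.59, did not pass (adjusted p = 0.27), nor did the genotypes differ by the test on vehicle (0.59 ± 0.41, adjusted p = 0.32).

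The mice with the lowest Nmrk2 of their groups on vehicle among controls (34.0) and on AICAR among HSALR mice (16.1) also had the highest slow fibre marker sums of those groups, 11935 and 3919 normalized CPM. In the other groups it was otherwise. The control mouse on AICAR with the lowest Nmrk2 (7.83) had the lowest sum of its group (2251), and the HSALR mouse on vehicle with the highest sum (3912) had Nmrk2 at 131, near the top of its group. The exons of Nmrk2 share 270 bases with exons of Atcayos on the opposite strand in GENCODE M21, within an Atcayos exon of 1236 bases, while the deposited Atcayos model is 318 bases long. Atcayos averaged 9.37 ± 1.86 and 4.97 ± 1.27 normalized CPM in control mice on vehicle and AICAR (SD, n = 3), and 21.4 ± 6.30 and 10.2 ± 2.63 in HSALR mice (SD, n = 5). Its group means were below those of Nmrk2 in normalized CPM in 4 of 4 groups. Per kilobase of deposited length Atcayos was lower in control mice on vehicle (29.5 against 35.2 normalized RPKM) and higher in control mice on AICAR (15.6 against 5.93), in HSALR mice on vehicle (67.3 against 53.2) and in HSALR mice on AICAR (32.1 against 24.1). The reads that both genes could share were not tested.

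Nmrk1 (Entrez 225994, chr19:18632016-18652428), the other riboside kinase, changed little by comparison. In HSALR mice it was at 7.07, 7.52, 8.15, 8.23 and 8.96 normalized CPM on vehicle and at 6.07, 6.16, 6.61, 6.96 and 7.02 on AICAR. The groups did not overlap, although the highest AICAR mouse and the lowest vehicle mouse nearly met. Nmrk1 fell 1.22-fold (log2 fold change -0.28 ± 0.08, adjusted p = 0.015), and this call was lost with the epidermal covariate (-0.31, adjusted p = 0.063). In control mice the values ran from 7.39 to 7.81 on vehicle and from 6.07 to 7.56 on AICAR, with a log2 fold change of -0.13 ± 0.10 (adjusted p = 0.42). HSALR and control mice differed by 0.08 ± 0.09 on vehicle and by -0.07 ± 0.09 on AICAR (adjusted p = 0.55 and 0.62), and the AICAR effects by -0.15 ± 0.13 (adjusted p = 0.62). The genotype difference on vehicle passed in 1 of 27 alternative fits, the edgeR fit with Tbp scaling (0.36, adjusted p = 0.048).

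Per kilobase of deposited gene length, Nmrk2 made up most of the riboside kinase reads in the mean of each of the 4 groups, by the least in control mice on AICAR. Its share of Nmrk1 and Nmrk2 together was 86.8% ± 5.90 (SD, n = 3) in control mice on vehicle and 57.8% ± 7.13 (SD, n = 3) on AICAR. In HSALR mice it was 90.3% ± 4.72 (SD, n = 5) on vehicle and 83.4% ± 9.14 (SD, n = 5) on AICAR. The share after AICAR was 25.6 points higher in HSALR mice, with no overlap (p = 0.018 by a two-sided exact permutation test, and 0.14 after adjustment over 12 comparisons). With 5 against 3 mice no lower p is possible. The control groups also did not overlap, but 3 against 3 mice cannot give an exact permutation p below 0.1.

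**Figure D2:**
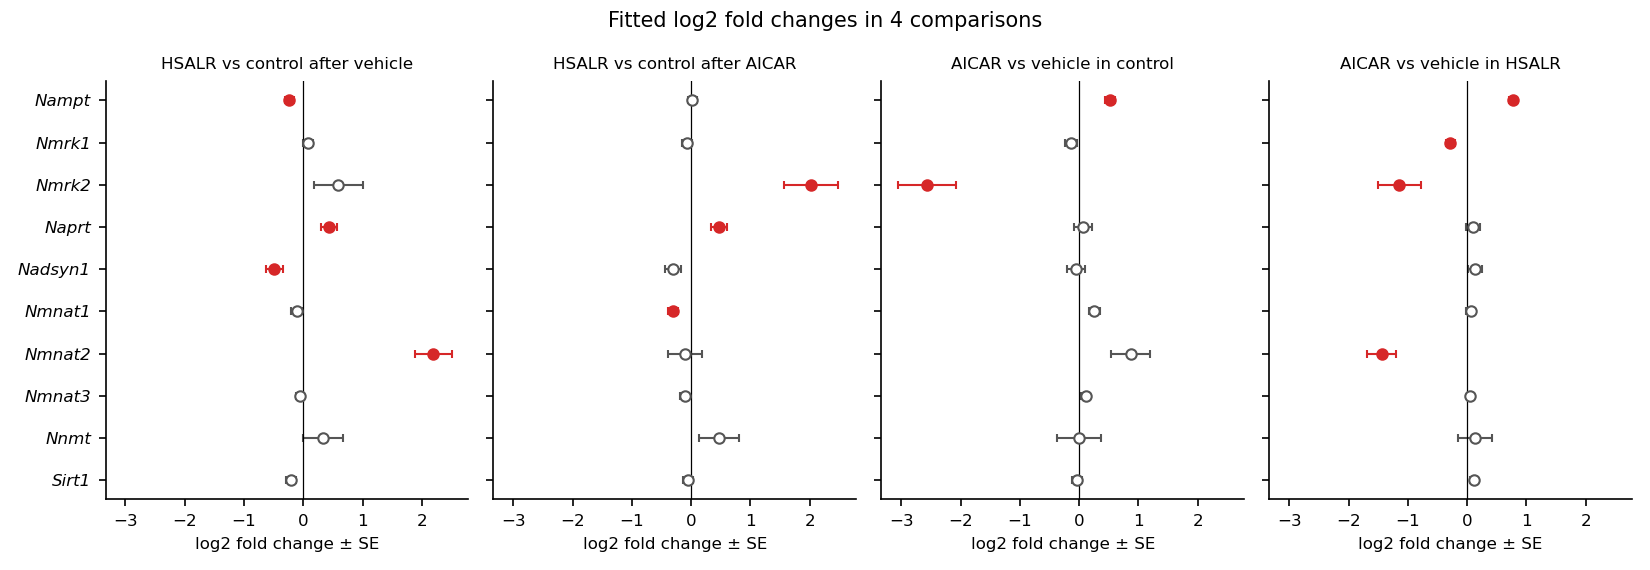
Fitted log2 fold change (x axis, point) with its SE (bar) for each gene (y axis) in 4 comparisons; filled red points passed an adjusted p of 0.05 and open grey points did not. Nampt lies right of 0 and Nmrk2 left of 0 in both AICAR comparisons, and Nmnat2 lies at 2.20 for HSALR against control mice on vehicle and at -1.44 for AICAR in HSALR mice.

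Nmnat2 (Entrez 226518, chr1:152954781-153119266) was the member whose response to AICAR differed between the genotypes by the test. It was the least abundant member, with 24 to 212 reads per library. In control mice it was at 0.326, 0.421 and 0.441 normalized CPM on vehicle and at 0.516, 0.772 and 0.882 on AICAR. In HSALR mice it was at 1.17, 1.30, 1.72, 2.08 and 2.83 on vehicle and at 0.547, 0.562, 0.582, 0.811 and 0.856 on AICAR. All 5 HSALR mice on vehicle were above all other mice, and all 5 HSALR mice on AICAR lay within the range of the control mice on AICAR.

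Nmnat2 was 4.58-fold higher in HSALR than in control mice on vehicle (log2 fold change 2.20 ± 0.31, adjusted p = 1.02e-04) and fell 2.71-fold on AICAR in HSALR mice (-1.44 ± 0.24, adjusted p = 6.08e-04). Both passed in all 27 alternative fits, from 1.98 to 2.48 and from -1.57 to -1.23. In control mice AICAR gave 0.87 ± 0.33 (adjusted p = 0.094), which did not pass although the groups did not overlap, and after AICAR the genotypes differed by -0.11 ± 0.28 (adjusted p = 0.81). The difference between the AICAR effects was -2.31 ± 0.41 (adjusted p = 0.025), the 1 call among the 10 members, where 0.691% of all genes passed (0.207% higher and 0.484% lower). It was lost in 7 of 26 alternative fits, among them limma voom (adjusted p = 0.053), the epidermal covariate (0.067) and leaving out the control mice S445 (0.070), S447 (0.060), S448 (0.055) or S450 (0.066) or the HSALR mouse S454 (0.051). The difference then ran from -2.39 to -2.14. Schwann cell markers, from the nerves in muscle, summed to 37.3 to 102 normalized CPM in HSALR mice on vehicle, to 56.03 to 102 in control mice on vehicle, to 30.3 to 63.6 in HSALR mice on AICAR and to 38.9 to 113 in control mice on AICAR, and each of these ranges overlapped with every other.

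Nmnat1 (Entrez 66454, chr4:149467569-149485210) and Nmnat3 (Entrez 74080, chr9:98287433-98420533), the nuclear and mitochondrial forms, were nearly flat beside Nmnat2. Nmnat1 in control mice was at 13.9, 15.8 and 16.6 normalized CPM on vehicle and at 17.6, 17.7 and 20.1 on AICAR, and the log2 fold change of 0.26 ± 0.10 did not pass (adjusted p = 0.095). In HSALR mice it ran from 12.4 through a median of 14.2 to 16.6 on vehicle, and from 13.9 through 15.0 to 16.0 on AICAR (log2 fold change 0.07 ± 0.08, adjusted p = 0.57). The AICAR effects differed by -0.19 ± 0.12 (adjusted p = 0.49), and on vehicle the genotypes differed by -0.11 ± 0.09 (adjusted p = 0.39). After AICAR it was 1.23-fold lower in HSALR mice (-0.30 ± 0.09, adjusted p = 0.022), with no overlap. That call was lost without the control mouse S449, which was the highest (-0.24, adjusted p = 0.11), and without the HSALR mice S454 or S455 (adjusted p of 0.0505 and 0.0501), and with Tbp scaling (-0.34, adjusted p = 0.13).

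Nmnat3 lay between 12.5 and 16.4 normalized CPM in all 16 mice and passed no test, its log2 fold changes running from -0.11 ± 0.07 to 0.11 ± 0.08 over the 4 pairwise comparisons (adjusted p 0.27 to 0.62), with a difference of AICAR effects of -0.06 ± 0.10 (adjusted p = 0.83). Per kilobase, Nmnat1 held on average 68.6% to 72.4% of the reads of the 3 NMNAT genes and Nmnat3 held 27.0% to 29.6%. Nmnat2 held 0.333% to 2.84% in single mice. None of the 8 comparisons of the Nmnat1 and Nmnat3 shares passed after adjustment. The Nmnat1 and Nmnat3 shares nearly mirror each other, so these tests are not independent. The lowest exact p possible is 0.0179 for 5 against 3 mice, 0.1 for 3 against 3 and 0.00794 for 5 against 5. A single comparison could therefore not pass the adjustment on its own. The smallest exact permutation p was 0.036, for HSALR against control mice on AICAR (0.14 adjusted over 12 comparisons).

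The second question was how these genes differed between HSALR and control mice on vehicle and on AICAR. On vehicle 4 of the 10 members passed the test, Naprt and Nmnat2 higher and Nampt and Nadsyn1 lower in HSALR mice, where 26.9% of all genes passed (15.4% higher and 11.5% lower). On AICAR 3 passed, Naprt and Nmrk2 higher and Nmnat1 lower, where 21.8% of all genes passed (12.2% higher and 9.64% lower). These counts, too, are near the background. The median absolute log2 fold change of the members was 0.28 on vehicle, against 0.21 over all genes, and 0.21 on AICAR, against 0.20. The genotype comparison on vehicle shares its samples with the AICAR comparisons above, so the values stand side by side and are not independent.

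Naprt (Entrez 223646, chr15:75890963-75894481), which takes nicotinic acid into the pathway, was higher in HSALR mice in both arms. On vehicle it was at 5.19, 5.89 and 5.94 normalized CPM in control mice and at 5.56, 6.92, 7.82, 8.66 and 9.21 in HSALR mice, with 1 HSALR mouse inside the control range. On AICAR it was at 5.53, 6.00 and 6.26 in control mice and at 7.40, 7.46, 8.39, 8.89 and 8.89 in HSALR mice, with no overlap. The increase was 1.35-fold on vehicle (log2 fold change 0.43 ± 0.13, adjusted p = 0.028) and 1.38-fold on AICAR (0.47 ± 0.13, adjusted p = 0.022). AICAR itself gave 0.06 ± 0.15 in control and 0.10 ± 0.11 in HSALR mice (adjusted p = 0.83 and 0.55), with a difference of 0.04 ± 0.19 (adjusted p = 0.95).

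The vehicle call of Naprt was lost without any one of the 3 control mice (adjusted p 0.053 to 0.11), without the HSALR mice S452 (0.067) or S458 (0.059), with only the groups compared in the fit (0.43, adjusted p = 0.081) and with the epidermal covariate (0.42, adjusted p = 0.0506), the fold change being nearly the same in these last 2 fits. The call on AICAR was lost without the control mice S447 (0.062) or S449 (0.083) and with Tbp scaling (0.11). GENCODE M21 gives Naprt 277 exonic bases shared with Eef1d on the same strand. Eef1d, a translation elongation factor subunit, was at 99.96 ± 1.73 and 95.0 ± 2.23 normalized CPM in control mice on vehicle and AICAR (SD, n = 3), and at 123 ± 6.99 and 107 ± 4.20 in HSALR mice (SD, n = 5). The part of shared reads in the Naprt values was not tested.

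Nadsyn1 (Entrez 78914, chr7:143795589-143822862), which completes NAD on the nicotinic acid route, went the other way on vehicle. It was at 2.74, 3.06 and 3.15 normalized CPM in control mice and at 1.87, 1.88, 2.07, 2.38 and 2.46 in HSALR mice, without overlap. It was 1.40-fold lower (log2 fold change -0.49 ± 0.14, adjusted p = 0.015). The call was lost without the control mice S445 (0.057) or S450 (0.060), with the slow fibre covariate (log2 fold change -0.46, adjusted p = 0.071) and with Tbp scaling (-0.21, adjusted p = 0.34). On AICAR the levels were 2.45, 2.79 and 3.38 in control mice and 2.08 to 2.82 in HSALR mice, which overlapped, and the log2 fold change of -0.30 ± 0.14 did not pass (adjusted p = 0.13). AICAR gave -0.06 ± 0.15 in control and 0.13 ± 0.12 in HSALR mice (adjusted p = 0.86 and 0.47), with a difference of 0.18 ± 0.19 (adjusted p = 0.70).

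Nnmt (Entrez 18113, chr9:48538002-48607655), the methyltransferase that disposes of nicotinamide and is well known from fat and liver, passed no test. It was at 1.58, 2.01 and 2.88 normalized CPM in control mice on vehicle and at 1.12, 2.54 and 2.79 on AICAR. In HSALR mice it ran from 1.85 through a median of 2.10 to 4.08 on vehicle and from 2.15 through 3.10 to 3.78 on AICAR. All 4 groups overlapped, and the log2 fold changes of the 4 pairwise comparisons ran from 0.00 ± 0.37 to 0.47 ± 0.33 (adjusted p 0.33 to 1.0), with a difference of AICAR effects of 0.14 ± 0.47 (adjusted p = 0.92).

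Over the 16 mice, the gene whose log2 level was most like that of Nnmt was Adipoq, the adipocyte hormone adiponectin, with Pearson's r of 0.939, followed by Glb1l2 (0.931) and Ces1f (0.905). These correlations describe mice that share groups and libraries and carry no test. The 6 adipocyte markers summed to 106 to 172 normalized CPM in control mice on vehicle, 50.5 to 219 in control mice on AICAR, 83.9 to 222 in HSALR mice on vehicle and 133 to 245 in HSALR mice on AICAR. None of the 6 was at 0 in any library, Adipoq having 551 to 3587 reads. The control mouse on AICAR with the least Nnmt (1.12) also had the smallest adipocyte sum (50.5). The part of fat in the level of Nnmt was not tested.

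**Figure D3:**
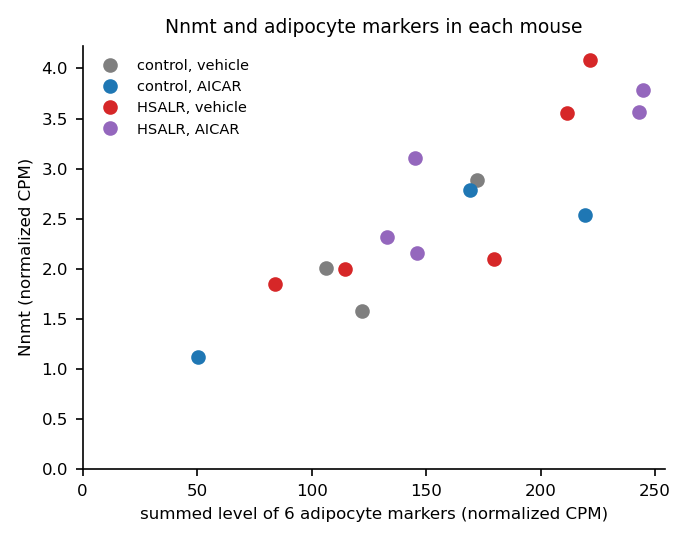
Nnmt (y axis, normalized CPM) against the summed level of 6 adipocyte markers (x axis, normalized CPM), 1 point per mouse, coloured by group. Marker sums run from 50.5 to 245 and Nnmt from 1.12 to 4.08, and points of the 4 groups lie among each other.

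Sirt1 (Entrez 93759, chr10:63319005-63339035), the NAD-dependent deacetylase, passed no test in the main fit. On vehicle it was at 14.2, 14.5 and 15.6 normalized CPM in control mice and at 11.1, 12.5, 13.2, 13.3 and 13.9 in HSALR mice. These groups did not overlap, yet the log2 fold change of -0.21 ± 0.08 had an adjusted p of 0.063. It passed with DESeq2 (adjusted p = 0.0415), with upper-quartile scaling (0.037), without the HSALR vehicle mouse S452 (0.037) and without the HSALR AICAR mouse S460 (0.038), which is 4 of 27 alternative fits, and its sign turned with Tbp scaling (0.068). AICAR gave -0.03 ± 0.09 in control mice (adjusted p = 0.85) and 0.12 ± 0.07 in HSALR mice (adjusted p = 0.22), where 1 mouse at 15.8 stood above the others at 13.2 to 13.8. The genotypes differed by -0.06 ± 0.08 on AICAR (adjusted p = 0.65), and the AICAR effects by 0.15 ± 0.11 (adjusted p = 0.55). The exons of Sirt1 share 65 bases with Gm16145 on the opposite strand.

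Scaling libraries to Tbp, the reference gene of the study's PCR, moved the median log2 fold change of all genes to 0.28 for the genotype on vehicle, 0.19 for AICAR in control mice, -0.13 for AICAR in HSALR mice and -0.32 for the difference of AICAR effects. Tbp itself averaged 6.47 ± 0.56 and 5.62 ± 0.32 normalized CPM in control mice on vehicle and AICAR (SD, n = 3), and 5.36 ± 0.44 and 5.80 ± 0.52 in HSALR mice (SD, n = 5). Directions of Nampt and Sirt1 between the genotypes on vehicle therefore depend on the scaling, while those of Nmnat2 and Naprt do not.

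Ordered per kilobase in control mice on vehicle, Nampt led at 42.2 ± 4.58 normalized RPKM (SD, n = 3), followed by Nmrk2 at 35.2 ± 16.3, Nmnat1 at 16.2 ± 1.41 and Nmnat3 at 6.66 ± 0.32. Nmrk1 (4.63), Sirt1 (3.78), Naprt (3.00), Nnmt (2.13), Nadsyn1 (1.13) and Nmnat2 (0.0875) came after them. Neighbouring ranges overlapped for Nampt and Nmrk2 and for Naprt and Nnmt, and the other neighbours did not overlap. Nmrk2 held rank 2 there, rank 4 in control mice on AICAR (5.93 ± 1.49), rank 1 in HSALR mice on vehicle (53.2 ± 20.7, n = 5) and rank 2 in HSALR mice on AICAR (24.1 ± 9.26). Nampt held rank 1 in all groups but HSALR mice on vehicle, where it was second (35.8 ± 2.26) and overlapped with Nmrk2. Nmrk2 was the most variable member within 3 of the 4 groups, with a coefficient of variation of 38.4% to 46.3%, and Nnmt was in control mice on AICAR (42.0% against 25.2% for Nmrk2), whereas Nampt varied by 6.14% to 10.8% and Nmnat3 by 4.78% to 6.60%.

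**Figure D4:**
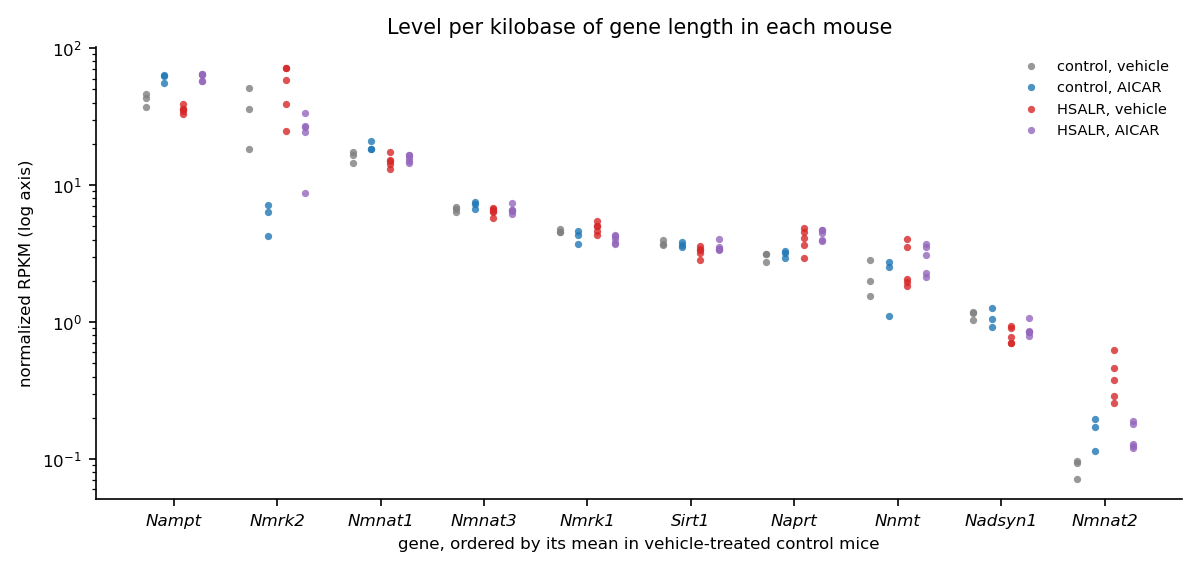
Level per kilobase of deposited gene length (normalized RPKM, log axis) of each gene in each mouse, 1 point per mouse, with genes ordered by their mean in control mice on vehicle. Levels span from 0.0721 for Nmnat2 to 72.2 for Nmrk2, and Nmrk2 has the widest vertical scatter.

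The pattern most like that of Nampt over the 16 mice was that of Ubl4a (Pearson's r = 0.982), followed by Gm44504 (0.977) and Lpin1 (0.968), which encodes a phosphatidate phosphatase. Nmnat2 was most like Nip7 (0.944), Ucp2 (0.906), a mitochondrial carrier, and Arhgef37 (0.904), and Nmrk2 was most like Pacrgl (0.895), Kifc2 (0.891) and Taf7 (0.873). Naprt had Ndufb3 (0.927) and Polr2g (0.927) nearest, Nadsyn1 had Utp25 (0.898), Nmnat1 had Ubqln4 (0.898), Nmnat3 had Esrra (0.869), Nmrk1 had Lrrc74b (0.915) and Sirt1 had Mir3064 (0.905). Among the members themselves, the strongest correlations were those of Nampt with Nmrk1 (r = -0.776), Nampt with Nmrk2 (-0.654), Nmnat1 with Nmnat3 (0.687) and Nadsyn1 with Nmnat2 (-0.687). All are descriptions over n = 16 mice that share group means, and carry no p.

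The rest of the pathway was taken from a list of 39 other genes of NAD synthesis, transport, consumption and breakdown, of which 31 passed the filter on low counts. The 8 that did not pass were Tdo2, Ido2, Kynu, Haao, Acmsd, Slc22a13, Slc5a8 and Bst1, each with at most 18 reads in any library, so 5 of the 9 listed genes of the route from tryptophan were not measurable at this depth. On AICAR 6 of the 31 passed in HSALR mice, 5 higher and 1 lower, where 26.6% of all genes passed. With the epidermal covariate 3 passed, where 15.3% of all genes did, and with Tbp scaling 2 passed, where 17.9% did. In control mice 3 of the 31 passed, 2 higher and 1 lower, where 13.2% of all genes passed, and the 3 fell to 1 without the mouse S449 or S450, where 7.29% and 9.07% did. HSALR mice differed from control mice in 7 of the 31 on vehicle, 3 higher and 4 lower, where 26.9% of all genes passed (15.4% higher and 11.5% lower). With Tbp scaling, where 34.2% of all genes passed, these 4 lower genes did not pass, so the split depends on the scaling. On AICAR HSALR mice differed from control mice in 11 of the 31, 7 higher and 4 lower, where 21.8% of all genes passed, and the 11 fell to 6 or 7 without any one of the control mice S447, S448 and S449 or the HSALR mice S455, S462 and S463, fits in which 14.1% to 18.6% of all genes passed. For the difference of the AICAR effects 0 of the 31 passed in edgeR, 0 in DESeq2 and 0 in limma voom, where 0.691%, 3.34% and 0.542% of all genes passed. In edgeR 8 of the 31 had an unadjusted p under 0.05, as did 15.0% of all genes.

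Qprt, which feeds quinolinic acid from the tryptophan route into NAD synthesis, had the largest AICAR response on the list in HSALR mice. It was at 0.679, 0.839 and 0.969 normalized CPM in control mice on vehicle and at 1.31, 1.53 and 1.69 on AICAR. In HSALR mice it was at 1.01, 1.03, 1.05, 1.07 and 1.22 on vehicle and at 2.82, 3.04, 3.29, 3.30 and 4.40 on AICAR. No AICAR group overlapped with its vehicle group. Qprt rose 3.13-fold in HSALR mice (log2 fold change 1.65 ± 0.14, adjusted p = 1.52e-06) and 1.82-fold in control mice (0.86 ± 0.18, adjusted p = 0.0058), and on AICAR it was 2.23-fold higher in HSALR than in control mice (1.158 ± 0.16, adjusted p = 1.50e-04). Counts were 50 to 288 per library, and all 3 calls passed in all 27 alternative fits.

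Afmid, an enzyme of the same tryptophan route, was the largest increase of the list in HSALR mice on vehicle. It was at 3.76, 4.91 and 5.09 normalized CPM in control mice and at 8.98 to 10.7 in HSALR mice on vehicle, 2.14-fold higher (log2 fold change 1.10 ± 0.11, adjusted p = 4.43e-06). It fell on AICAR in HSALR mice, to 6.20 to 7.58 (-0.50 ± 0.09, adjusted p = 0.0010), and stood above the control mice on AICAR at 3.49 to 4.19 (0.85 ± 0.11, adjusted p = 7.82e-05). Kmo, a further enzyme of that route, passed for HSALR against control mice on AICAR (1.163 ± 0.40, adjusted p = 0.048) at levels of 0.186 to 0.668 normalized CPM, but the call passed in 8 of 27 alternative fits, and leaving out any mouse other than S446, S453, S454, S459 or S460 ended it. In control mice Kmo was at 0.398, 0.421 and 0.689 on vehicle and at 0.186, 0.196 and 0.213 on AICAR, a larger fitted change than that of Qprt that did not pass (-1.335 ± 0.43, adjusted p = 0.053). The 3 calls of Afmid passed in all 27 alternative fits.

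The 4 listed genes that were lower in HSALR mice on vehicle act on NAD consumption (Cd38) and on the mitochondrial and phosphorylated pools (Nnt, Nadk2 and Slc25a51). They are 4 of the 31 tested, where 11.5% of all genes were lower, so the count is near the background. Nadk, which also acts on the phosphorylated pool, did not pass there (0.02 ± 0.13, adjusted p = 0.93). Beside Afmid, the genes that were higher were Rps19bp1 and Art3. Cd38, the NAD glycohydrolase, was at 5.01, 5.99 and 6.29 normalized CPM in control mice and at 3.18 to 4.56 in HSALR mice (log2 fold change -0.64 ± 0.16, adjusted p = 0.0087). It rose on AICAR in HSALR mice (0.51 ± 0.14, adjusted p = 0.017), to 3.41 in 1 mouse and 5.14 to 6.21 in the other 4. This rise was lost with the epidermal covariate (0.43, adjusted p = 0.12) and with Tbp scaling (0.38, adjusted p = 0.096). Nnt, the mitochondrial transhydrogenase, was 1.53-fold lower (-0.62 ± 0.14, adjusted p = 0.0050), a call lost with the slow fibre covariate (-0.32, adjusted p = 0.078). Nadk2, the mitochondrial NAD kinase, was 1.43-fold lower (-0.51 ± 0.09, adjusted p = 5.69e-04). Slc25a51, the mitochondrial NAD carrier, was at 92.8 to 98.4 in control mice and at 69.3 to 84.3 in HSALR mice on vehicle (-0.35 ± 0.06, adjusted p = 5.20e-04) and rose on AICAR in HSALR mice to 89.8 to 94.7 (0.31 ± 0.05, adjusted p = 6.36e-04). Control mice on AICAR were at 104 to 114, and HSALR mice were still lower there (-0.21 ± 0.06, adjusted p = 0.022). So they were for Nnt (-0.48 ± 0.14, adjusted p = 0.027). These calls on AICAR passed in 25 and 20 of 27 alternative fits. AICAR gave Slc25a51 0.16 ± 0.07 in control mice (adjusted p = 0.12), and the AICAR effects differed by 0.14 ± 0.09 (adjusted p = 0.45). With Tbp scaling these 4 genes did not pass between the genotypes on vehicle (adjusted p 0.11 to 0.58), nor did the rise of Slc25a51 on AICAR (0.19, adjusted p = 0.13). The endothelial sums, like Cd38 and Slc25a51, had a higher median in HSALR mice on AICAR (201) than on vehicle (169), and their part in these results was not tested.

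In control mice on AICAR, Nadk, the cytosolic NAD kinase, rose 1.39-fold (log2 fold change 0.48 ± 0.14, adjusted p = 0.038) and Aox1, an oxidase that breaks down methylated nicotinamide, fell 1.42-fold (-0.51 ± 0.12, adjusted p = 0.012). The Nadk call was lost without any one of the 6 control mice (adjusted p 0.051 to 0.14), and the Aox1 call without the control mouse S449 (0.058) or S450 (0.059) and with Tbp scaling (0.196). Nt5e, an ecto-enzyme that makes nucleosides from nucleotides, was 1.62-fold lower in HSALR than in control mice on AICAR (-0.70 ± 0.16, adjusted p = 0.0067). Differences between the genotypes in the AICAR effect on these 3 genes did not pass (adjusted p 0.23 to 0.28).

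**Figure D5:**
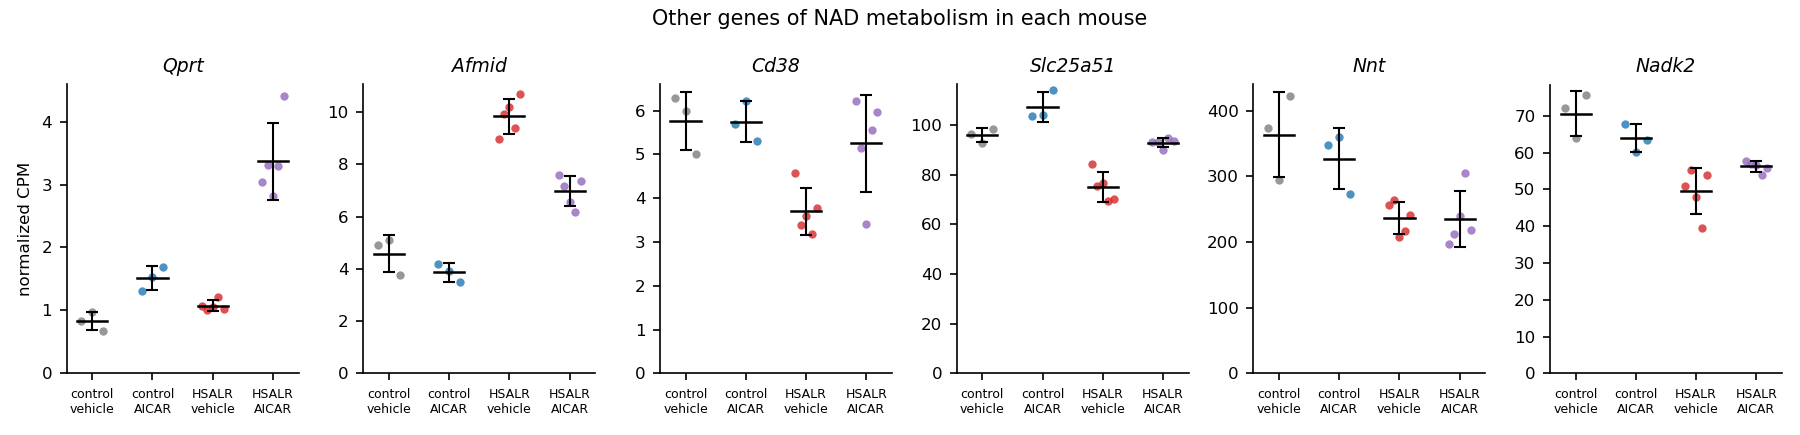
Levels of 6 other genes of NAD metabolism in each mouse, in normalized CPM on axes that start at 0; points are mice, lines are means and bars are SD (n = 3, 3, 5 and 5). Qprt is highest in HSALR mice on AICAR, at 2.82 to 4.40, and Afmid is highest in HSALR mice on vehicle, at 8.98 to 10.7.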

How the data were processed

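Single-end, stranded mRNA libraries from gastrocnemius muscle were sequenced, 1 per mouse. The authors mapped reads with STAR 2.5.2a to mm10, reporting 1 location for equal hits, and counted reads starting in any exon of a RefSeq gene with QuasR. The strand setting of the counting is not given in the sources used here. The authors deposited whole-number counts without normalization, with gene lengths. Entrez ids were matched to symbols with the RefSeq table of GRCm38.p6 (24374 of 24454 matched).

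Counts were scaled by TMM, filtered with filterByExpr and tested with the quasi-likelihood F test of edgeR 4.0.16 (R 4.3.3), with 1 mean per group over all 16 mice and Benjamini-Hochberg adjustment over 15487 genes. Normalized RPKM divides by the deposited length. Shares were compared by two-sided exact permutation tests. The pipeline was tested on simulated data. Alternatives were other scalings, DESeq2 1.42.0, limma 3.58.1 with voom, other filters, the groups compared alone and leaving out each mouse. Covariates for epidermal and slow fibre markers were chosen after seeing the data, and the epidermal level is partly confounded with AICAR in HSALR mice. What the numbers in the mouse names stand for is not stated, and no label pairs samples. Replicate libraries differed by more than counting noise (chi-square per degree of freedom 25.1 to 141 over 26 pairs), and nothing says whether litters or days were shared.

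The naming rule took every member and, of the other NAD genes, at most the 4 calls with the largest absolute fold change per comparison, and for likeness up to 3 genes. A gene named for 1 comparison may be given in others, as Slc25a51 and Kmo are. Rps19bp1 and Art3 complete a count and were named after their values were seen. Kept as overlap checks or scaling references were Atcayos, Eef1d and Tbp, named after their values were seen. The members and lists were chosen with earlier results of these data known.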

Additional observations from a re-analysis of the deposited data

Results flagged for a closer look

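In all, 5 values stood apart from the other 4 mice of their group by Dixon's test, among 46 groups of 5 values examined, where chance gives about 2.3. All 5 were in HSALR mice on AICAR. Nadsyn1 was at 2.82 normalized CPM in mouse S462, against 2.08 to 2.26 in the others. Sirt1 was at 15.8 in mouse S460, against 13.2 to 13.8. In the same mouse Nadk was at 43.0, against 28.8 to 31.6, and Slc25a51 was at 89.8, against 93.3 to 94.7. The share of Nmrk2 in the riboside kinase reads was 67.1% in mouse S462, against 86.6% to 88.6%. The AICAR effect on Nmnat2 differed between the genotypes, with a difference of -2.31 on the log2 scale (HSALR minus control, edgeR adjusted p = 0.025).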

How the results depend on the processing

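The Nampt and Nmrk2 responses to AICAR in control mice, the Nampt and Nmnat2 responses in HSALR mice, Nmnat2 between genotypes on vehicle and Nmrk2 between genotypes on AICAR kept direction and call in all 27 alternatives run for each. Members called on vehicle between genotypes numbered 4 (26.9% of all genes), and 2 with only the groups compared (22.8%) and 2 with the slow fibre covariate (19.7%). On AICAR they numbered 3 (21.8%), and 1 with Tbp scaling (9.01%). For AICAR in HSALR mice they numbered 4 (26.6%), and 2 with the epidermal covariate (15.3%), and for the difference of AICAR effects 1 (0.691%), and 0 with voom (0.542%) and 0 with the epidermal covariate (0.368%). Other NAD genes called on AICAR between genotypes numbered 11, and 3 with Tbp scaling. For AICAR in control mice they numbered 3 (13.2%), 2 higher and 1 lower. They numbered 6 with Tbp scaling (13.9%), 6 higher and 0 lower, and 6 with DESeq2 (17.2%), 4 higher and 2 lower. For AICAR in HSALR mice they numbered 6, and 2 with Tbp scaling (17.9%) and 3 with the epidermal covariate. Scaling to Tbp turned the sign of small log2 fold changes. On vehicle between genotypes these were Nampt (0.045), Nmnat1 (0.16), Nmnat3 (0.22) and Sirt1 (0.068), and on AICAR Nampt (-0.021). For AICAR in control mice they were Nadsyn1 (0.14), Nmrk1 (0.071), Nnmt (0.19) and Sirt1 (0.17), and in HSALR mice Naprt (-0.015), Nmnat1 (-0.050) and Nmnat3 (-0.062). For the difference of AICAR effects they were Nampt (-0.066), Naprt (-0.29), Nadsyn1 (-0.12), Nnmt (-0.14) and Sirt1 (-0.16). With Tbp scaling the 3 members called on vehicle between genotypes were all higher (34.2% of all genes passed), against 2 higher and 2 lower with TMM. For AICAR in HSALR mice, library size alone turned Nmnat1 (-0.012) and Nmnat3 (-0.024), and the epidermal covariate turned Nmnat1 (-0.032). For AICAR in control mice, Nnmt moved from 0.00 to 0.000896 with RLE, 0.0010 with DESeq2 and 0.0033 with the slow fibre covariate. The Nmnat3 share between genotypes on vehicle was 0.34 points, and -1.40 points without division by length.

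Leaving out 1 mouse in turn, members called ran from 1 to 5 on vehicle between genotypes (18% to 27.8% of all genes), from 1 to 3 on AICAR (14.1% to 24.5%) and from 0 to 1 for the difference (0.0959% to 2.40%), and other NAD genes from 6 to 12 on AICAR between genotypes, from 1 to 4 for AICAR in control mice (7.29% to 14.1%) and from 0 to 1 for the difference. The vehicle count was lowest without the control mice S445 (18% of all genes) or S450 (20.5%), and the AICAR count without the control mouse S449 (16.7%). Log2 fold changes that crossed 0 were Nampt (-0.038 to 0.063), Nmnat2 (-0.30 to 0.055) and Nmrk1 (-0.15 to 0.0046) on AICAR between genotypes, Nadsyn1 (-0.19 to 0.047), Nnmt (-0.24 to 0.30) and Sirt1 (-0.065 to 0.011) for AICAR in control mice, and Naprt (-0.055 to 0.12) and Nnmt (-0.17 to 0.37) for the difference. The Nmnat3 share ran from -0.94 to 1.84 points between genotypes on vehicle and from -0.26 to 0.50 for AICAR in HSALR mice. The causes were not tested. No paired analysis was made because no label pairs the mice. Counting error is among the 10 members relatively largest for Nmnat2, with 24 reads in the lowest library.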
